A study of Rattus norvegicus with 36 samples.

Results

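The genes described here are 9 that build the postsynaptic density of excitatory synapses: the scaffolds Dlg2, Dlg3, Dlg4, Shank1, Shank2, Shank3 and Homer1, and the kinase subunits Camk2a and Camk2b. They were taken by gene symbol, and all 9 were found among the 20603 gene rows of a table of normalised gene counts from rat hippocampus. The values come from total RNA of frozen hippocampus of female rats, with 36 libraries labelled in 6 groups of 6. Regular cyclers were labelled at 6 months (Reg6m) and 9 months (Reg9m), irregular cyclers at 9 months (Irreg9m), and acyclic animals at 9 months (Acyc9m) and 16 months (Acyc16m). The group RegOVX10m had its ovaries removed at 9 months and was collected at 10 months. No strain is named in the labels. Each of the 36 value columns is headed only with a short form of the tissue and a number, and 0 of them carried a sample's title. No library could therefore be placed in a group, and the 36 libraries are described as 1 ungrouped set whose spread includes any differences of age, cycle status and surgery. Libraries are called below by that number, which was used as a name and not to form groups.

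The postsynaptic density is the protein layer under the membrane of an excitatory synapse. MAGUK scaffolds such as PSD-95 (Dlg4) hold NMDA receptors and, through auxiliary subunits, AMPA receptors. GKAP proteins (Dlgap genes) link MAGUKs to Shank scaffolds, and Shanks bind Homer proteins, which bind group I metabotropic receptors. CaMKII, the calcium-dependent kinase of this layer, is built mostly from alpha and beta subunits in forebrain neurons and is required for long-term potentiation at hippocampal synapses.

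RefSeq promoter windows on build GRCr8 were given for 6 of the 9 genes, and none is shown for Dlg3, Shank1 or Shank2. The windows of Dlg2, Dlg4, Camk2a and Camk2b reach into the annotated gene and are not printed. Those of Shank3 and Homer1 lie wholly before it and are shown because Shank3 formed one of the closest pairs among the 9 genes and Homer1 moved with receptor genes. Each holds the 250 bases before the start, 5′ to 3′ on the gene's strand, and capitals mark TATAAA on either strand.
Shank3 (chr7:122448073-122448322, plus strand): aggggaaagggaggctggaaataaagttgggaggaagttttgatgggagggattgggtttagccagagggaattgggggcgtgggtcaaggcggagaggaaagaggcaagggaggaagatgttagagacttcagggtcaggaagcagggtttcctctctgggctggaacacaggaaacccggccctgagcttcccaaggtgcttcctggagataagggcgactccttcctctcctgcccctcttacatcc
Homer1 (chr2:26278762-26279011, plus strand): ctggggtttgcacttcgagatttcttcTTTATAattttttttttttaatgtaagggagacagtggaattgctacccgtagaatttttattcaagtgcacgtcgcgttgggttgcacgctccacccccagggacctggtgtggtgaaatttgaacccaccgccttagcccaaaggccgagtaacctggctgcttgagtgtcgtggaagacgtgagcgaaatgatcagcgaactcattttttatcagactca
The Shank3 window was 56.0% G and C and the Homer1 window 46.4%, beside a median of 51.2% over 33469 promoter windows of this length. The motif TATAAA was found in 12.9% of all windows and once, on the opposite strand, in that of Homer1. GGGCGG was found in 30.5% of all windows and in neither of these. The window of Camk2b, part of which lies inside the gene, held GGGCGG at 5 positions, overlapping copies included. The same search found CACGTG in 5.59% of all windows. It found TGACG in 18.2% and its longer form TGACGTCA in 1.59%, and neither printed window held any of these motifs.

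Totals of the normalised values were 34455978 to 35985904 per library. Low values lay near multiples of a step of 0.87 to 1.07, which stands for about 1 read and differed between libraries with depth. No pair of libraries held identical values. Median rank correlations of a library with the others ran from 0.9934 to 0.997 over 15893 genes with a mean value of at least 10. Libraries 16 and 17 stood apart by these medians. In library 17 the summed level of 6 myelin genes of oligodendrocytes, among them Mbp and Mog, reached 340053, against 143908 to 219699 in the 34 other libraries, and in library 16 it was lowest at 123664. Summed interneuron markers (Gad1, Gad2, Slc32a1, Sst, Pvalb and Vip) were 10932 in library 17, against 16216 to 22717 in the 34. Where a named pair, gene or list count below changed its call without these 2 libraries, both values are given. All 7 pan-neuronal markers (Rbfox3, Snap25, Syt1, Stmn2, Tubb3, Nefl and Map2) were measured in every library, and their sum ran from 243846 to 284696. In such bulk tissue, fewer cells of a type and less RNA per cell cannot be told apart.

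All 9 genes were well expressed, the highest library standing at 1.2 to 1.59 times the lowest. Their levels are not ranked against each other, because the values are not per length. Spread is given as the interquartile range (IQR) of log2(value + 1), which had a median of 0.147 over all tested genes and 0.102 over the 6486 with a median value of at least 1000. Of the latter, 74.3% to 85.7% had a smaller IQR than Dlg2, Homer1, Camk2b, Shank1 or Camk2a. For Shank2, Shank3, Dlg4 and Dlg3 that share was 10.5% to 46.4%. Dlg4 encodes PSD-95. Its normalised count was 28478 in the lowest library (17), 31621 at the median and 34534 in the highest (23), with a log2 IQR of 0.091. Dlg3 encodes SAP102, the MAGUK prominent in young synapses. It ran from 7190 in library 17 through a median of 8334 to 8915 in library 6. Its log2 IQR of 0.065 was the smallest of the 9, and 4.56% of all tested genes had a smaller one. Library 17 was thus lowest for both of these scaffolds. Dlg2, which encodes PSD-93, was the most variable: 3235 in library 4, 4090 at the median and 5135 in library 16. Its log2 IQR was 0.159, larger than that of 85.7% of the genes with a median of at least 1000.

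Shank proteins form the deeper layer of the scaffold. Shank1 had 29128 normalised counts in library 4, a median of 33340 and 38649 in library 19. Shank2 was also lowest in library 4, at 8877, with a median of 9877 and a highest value of 10651 in library 21. Dlg2, Shank1 and Shank2 thus shared their lowest library, number 4. Shank3, the gene affected in Phelan-McDermid syndrome, ran from 12521 in library 29 through 14275 to 17243 in library 11. Its log2 IQR of 0.091 was narrow beside a full log2 range of 0.46. The range ran from 13.61 through a median of 13.80 to 14.07, with libraries far from the median on both sides. Homer1 encodes the long Homer scaffold forms and a short form, Homer1a, induced by activity; gene-level values do not separate them. It ran from 1252 in library 10 through 1477 to 1912 in library 24.

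Camk2a encodes the alpha subunit. It had 49981 normalised counts in library 29, 56708 at the median and 68220 in library 23. Camk2b, which encodes the actin-binding beta subunit, ran from 43769 in library 2 through 51731 to 57881 in library 3. The log2 IQRs of the kinase genes were 0.133 and 0.14, above that of Dlg4.

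**Figure D1:**
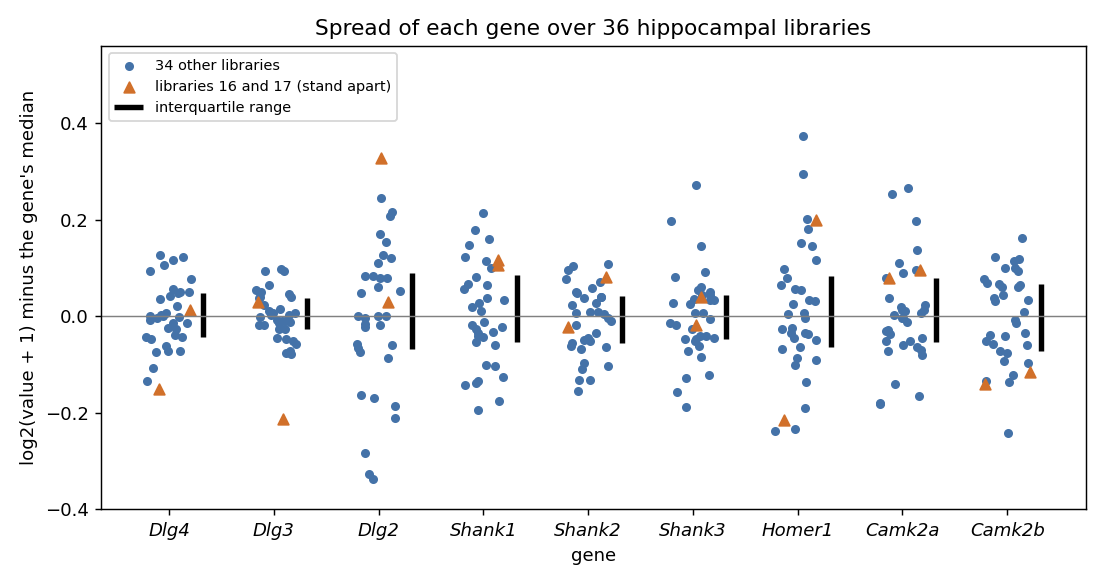
Deviation of log2(value + 1) from each gene's median (vertical axis) for the 9 genes (horizontal axis). Points are the 36 libraries, triangles are libraries 16 and 17, and black bars are the interquartile ranges. Dlg2 has the widest bar (0.159) and Dlg3 the narrowest (0.065), with library 17 far below the rest of Dlg3.

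The 9 genes did not move as a block. Over the 36 libraries, Pearson r between them ran from -0.61 to 0.78, with 24 of the 36 pairs above 0 and 12 below, and a median of 0.24. The median over all pairs of tested genes was -0.003. An r of at least 0.5 was reached by 8 member pairs of 36, against 2.52% of all gene pairs, and an r of at most -0.5 by 1 pair, against 1.85%. Every tested gene was also fitted on each member in turn with limma, with p-values adjusted over all 15892 other genes of the fit. A pair was called where both of its fits gave an adjusted p under 0.05. This called 10 pairs, 9 in the same direction and 1 in opposite directions, and left 26 uncalled. With libraries 16 and 17 left out, 7 same-direction pairs and the opposite pair were called. Of the 10 pairs, 7 kept their call and 3 lost it: Dlg2 and Homer1, Dlg3 and Dlg4, and Dlg3 and Camk2b. The calls in that setting thus include a pair not called with all libraries. At an unadjusted permutation p under 0.05 there were 17 pairs in the same direction and 2 in opposite directions, the second being Dlg3 and Shank1 (r = -0.36; permutation p = 0.03; adjusted p = 0.177; rho = -0.33). The p-values treat the libraries as exchangeable, although they come from 6 groups that cannot be told apart here. Some members also moved with the column number: r with it was 0.52 for Shank1, 0.44 for Dlg2 and -0.40 for Dlg3, and between -0.21 and 0.23 for the other 6. With the column number as a covariate, chosen after seeing the data, 7 same-direction pairs and the opposite pair were called. What the number stands for was not tested.

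**Figure D2:**
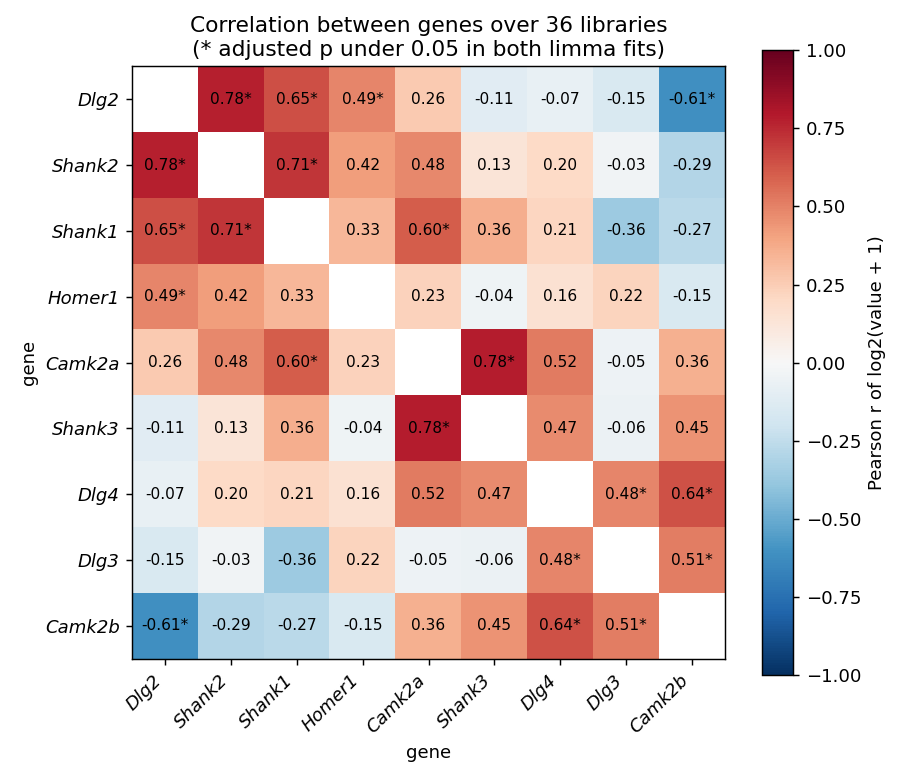
Pearson r of log2(value + 1) over 36 libraries for every pair of the 9 genes (both axes); colour runs from -1 (blue) to 1 (red) and an asterisk marks an adjusted p under 0.05 in both limma fits. Dlg2, Shank2 and Shank1 form one corner with r of 0.65 to 0.78, and Camk2b and Dlg4 sit in the opposite corner, with an r of -0.61 between Dlg2 and Camk2b.

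Dlg2, Shank1 and Shank2 rose and fell together. Dlg2 and Shank2 had an r of 0.78 and a Spearman rho of 0.77, each with a permutation p of 1e-05, the smallest that 100000 permutations can give. The larger adjusted p of the pair's limma fits was 2.96e-05, and r was 0.74 without the 2 libraries farthest from the median of Dlg2. Shank1 and Shank2 had an r of 0.71 and a rho of 0.72 (permutation p = 1e-05 for each), with an adjusted p of 0.000672 and an r of 0.64 without the 2 farthest libraries. For Dlg2 and Shank1 the r was 0.65 and the rho 0.65, with permutation p-values of 3e-05 and 4e-05 and an adjusted p of 0.00164. It was 0.58 without the 2 farthest libraries, and with the column number as a covariate the r was 0.55 (adjusted p = 0.0483). These 3 pairs kept their call under each of the 16 alternatives run and with any single library left out. The pseudocounts, mean filters and median-of-ratios rescaling among the 16 left r at 0.781, 0.713 and 0.646, so those settings tested the pairs little. Homer1 and Dlg2 had an r of 0.49 and a rho of 0.47 (permutation p = 0.0024 and 0.0043; adjusted p = 0.0348; r = 0.47 without the 2 farthest libraries). Leaving out libraries 16 and 17 gave an adjusted p of 0.063 at an r of 0.48. Leaving out library 10, 12, 16 or 36 alone also ended this call, with adjusted p-values of 0.11, 0.075, 0.0801 and 0.0626.

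Camk2b moved with the MAGUKs Dlg4 and Dlg3 and against Dlg2. For Dlg4 and Camk2b, r was 0.64 and rho 0.65 (permutation p = 5e-05 and 2e-05), with an adjusted p of 0.00254 and an r of 0.57 without the 2 farthest libraries. Dlg2 and Camk2b had an r of -0.61 and a rho of -0.64 (permutation p = 6e-05 and 4e-05), with an adjusted p of 0.00129. Their r was -0.56 without the 2 farthest libraries and -0.60 without libraries 16 and 17. Dlg2 and Dlg4, sister scaffolds, had an r of -0.07, with an adjusted p of 0.835. Dlg3 and Camk2b had an r of 0.51 and a rho of 0.52 (permutation p = 0.0012 and 0.0011; adjusted p = 0.0248; r = 0.47 without the 2 farthest libraries). Without libraries 16 and 17 the r was 0.50 and the adjusted p 0.0919. The call also ended without library 3 (adjusted p = 0.0612) and without library 17 (0.142). Dlg3 and Dlg4 had an r of 0.485 and a rho of 0.43 (permutation p = 0.0026 and 0.0092; adjusted p = 0.0473), and this call ended without library 17, the lowest for both genes. There r was 0.34 and the adjusted p 0.332, and r was 0.37 without the 2 libraries farthest from the median of Dlg3. The Dlg3 and Dlg4 call ended in 22 of the 36 fits that left out 1 library.

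Shank3 and Camk2a rose and fell together. Their r was 0.78 and their rho 0.63 (permutation p = 1e-05 and 5e-05), with an adjusted p of 0.000346 and an r of 0.67 without the 2 libraries farthest on either gene. Of all tested genes, Camk2a was the one with the highest r with Shank3. The call did not hold on ranks (adjusted p = 0.104) or without libraries 11 and 23, the farthest from the median of the 9 genes' mean (adjusted p = 0.0917). Library 23 was highest for Camk2a and library 11 for Shank3. Shank1 and Camk2a had an r of 0.60 and a rho of 0.60 (permutation p = 8e-05 and 9e-05; adjusted p = 0.0238; r = 0.57 without the 2 farthest libraries). Without library 23 the r was 0.56 and the adjusted p 0.0825, and without libraries 11 and 23 they were 0.54 and 0.124. The kinase subunits themselves had an r of 0.36 and a rho of 0.33 (permutation p = 0.031 and 0.053), with an adjusted p of 0.271 and an r of 0.27 without the 2 farthest libraries.

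**Figure D3:**
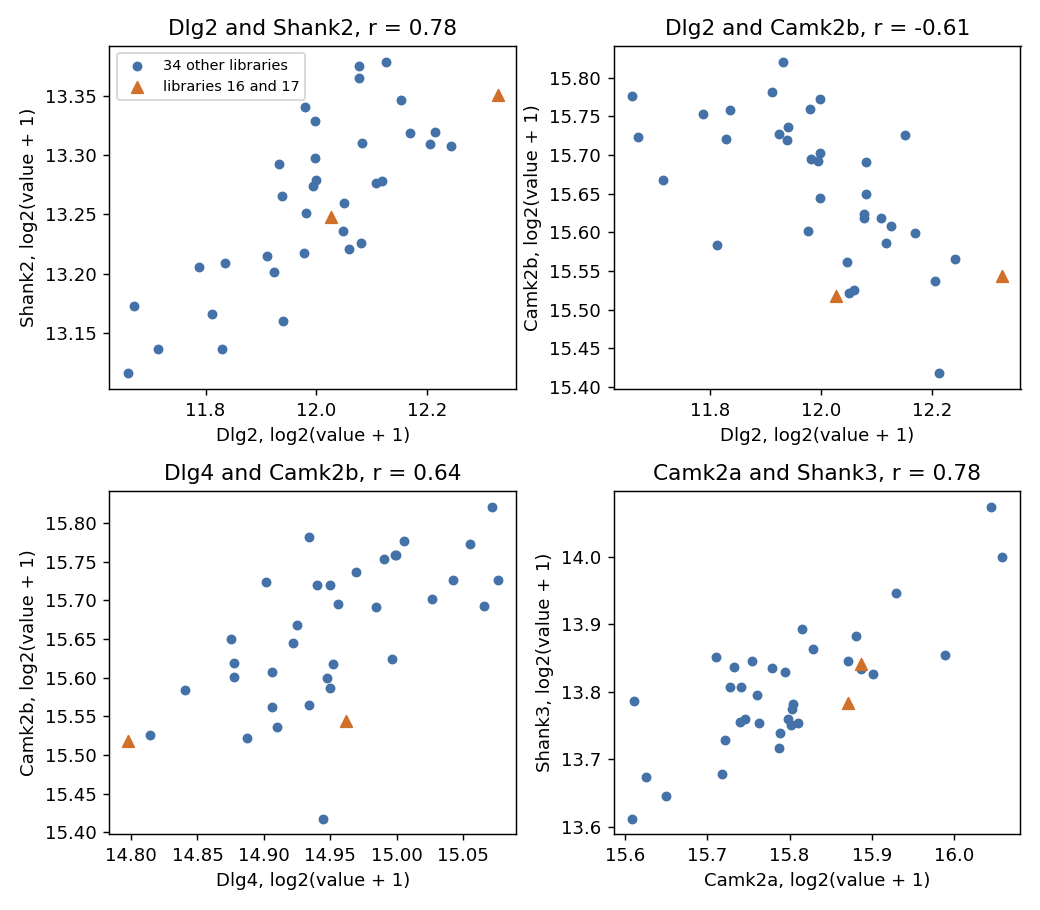
log2(value + 1) of 2 genes against each other in 4 panels, 1 point per library, with libraries 16 and 17 as triangles. Dlg2 rises with Shank2 (r = 0.78) and falls with Camk2b (r = -0.61), Camk2b rises with Dlg4 (r = 0.64), and Shank3 with Camk2a (r = 0.78), where a few high and low libraries lie far from the centre.

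The count of members called in each member's own fit is read against the share of all genes called in the same direction. In the Dlg2 fit, 3 of the 8 other members moved with it (all genes, 14.4%) and 1 against it (14.2%). In the Dlg4 fit 4 of 8 moved with it (6.7%) and 0 against it (3.03%). The Dlg3 fit called 2 with it (5.17%) and 0 against it (5.07%). Shank1 and Shank2 each had 3 of 8 moving with them (5.02% and 6.81%) and 0 against them (4.33% and 4.32%). Shank3 had 1 with it (0.711%) and 0 against it (0.428%). Homer1 had 1 with it (5.86%) and 0 against it (1.78%). Camk2a had 2 with it (0.485%) and 0 against it (0.44%), and Camk2b had 3 with it (11.5%) and 1 against it (8.05%). Dlg2 and Camk2b were thus the members that the largest shares of all genes followed, and Camk2a and Shank3 those that the smallest shares followed. With libraries 16 and 17 left out, the share of genes moving with Dlg3 was 0.3% and against it 0.52%. The pairs of Dlg3 with Dlg4 and with Camk2b then lost their calls (larger limma adjusted p = 0.291 and 0.0919). The member counts above are those with all libraries.

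The mean of the 9 genes, each scaled to unit spread, is a summary of genes that partly oppose each other. Camk2a had an r of 0.75 with the mean of the other 8, Dlg4 0.60, Shank2 0.54 and Shank1 0.50. Dlg2 had 0.26, Camk2b 0.13 and Dlg3 0.12. An r of at least 0.5 with the mean of all 9 was found for 402 of 15884 other genes (2.53%), and an r of at most -0.5 for 165 (1.04%). The most like was Crtc1 (r = 0.83), a CREB coactivator that shuttles from synapse to nucleus. Also among the 10 highest were Ppp2r2c (0.77), Egr3 (0.76), Ndst1 (0.76), Abr (0.74), Prkce (0.74), Mprip (0.74) and Prex1 (0.74). Among the lowest 5 were the peroxiredoxin gene Prdx1 (-0.71), the mitochondrial channel gene Vdac2 (-0.65) and Elp4 (-0.66). The other 2 were LOC103689999 (-0.74) and a row without a gene symbol (-0.65).

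Single members had different nearest genes. Ank2, which encodes a giant ankyrin of axons, had an r of 0.93 with Dlg2. Lrrc10b had 0.93 with Camk2b, Kcnh3 (a potassium channel) 0.84 with Dlg4, and Tp53i11 0.76 with Dlg3. Ttbk1, a tau kinase, had 0.80 with Shank1, Zmiz1 0.82 with Shank2, and Ppp2r2c, a regulatory subunit of protein phosphatase 2A, 0.81 with Camk2a. Grm5, the metabotropic receptor whose tail binds Homer, had the highest r with Homer1, at 0.84. Grm5 ran from 2254 through a median of 2948 to 3594 normalised counts.

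Other postsynaptic genes moved with some of the 9 and against others. Of 33 listed (signalling enzymes, GKAPs, neuroligins, AMPA receptor auxiliary subunits and other CaMKII genes), 32 passed the filter and Lrrtm1 did not. Their median r with the mean of the 9 was 0.39, against -0.003 over all tested genes, and 11 of 32 had an r of at least 0.5 and 0 had one of at most -0.5. Dlgap2 (0.70) was among the 2 highest, and the lowest were Dlg1 (-0.27) and Camk2d (-0.11). In the Dlg4 fit, 14 of 32 moved with Dlg4 (all genes, 6.7%) and 1 against it (3.03%). Without libraries 16 and 17 these counts were 13 (5.16%) and 2 (1.92%). Baiap2 (r = 0.82; adjusted p = 6.46e-06), Dlgap3 (r = 0.82; adjusted p = 6.7e-06) and Agap2 (r = 0.80) were among the 14. In the Camk2b fit, 15 moved with Camk2b (all genes, 11.5%) and 2 against it (8.05%). Without the same libraries these were 13 (9.9%) and 4 (7.72%). Agap2 (r = 0.81; adjusted p = 1.79e-06), Begain (r = 0.78), the spinophilin gene Ppp1r9b (r = 0.78) and neurogranin, Nrgn (r = 0.71), rose with Camk2b. Camk2d, the delta subunit of CaMKII, fell as Camk2b rose (r = -0.73; adjusted p = 3.08e-05).

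The Dlg2 fit divided the same list, with 9 moving with Dlg2 (all genes, 14.4%) and 10 against it (14.2%). Without libraries 16 and 17 these were 10 (13.2%) and 8 (12.1%). Dlgap2 (r = 0.75; adjusted p = 7.2e-06), Camk2d (r = 0.60) and Homer2 (r = 0.51) rose with Dlg2. Nrgn (r = -0.67; adjusted p = 0.000127), Begain (r = -0.60), Homer3 (r = -0.58) and the CaMKII inhibitor gene Camk2n1 (r = -0.57) fell as Dlg2 rose. In the Homer1 fit 5 moved with Homer1 (all genes, 5.86%) and 0 against it (1.78%), and without these libraries 4 (3.8%) and 0 (0.69%). Cnksr2 (r = 0.79; adjusted p = 5.27e-05), Dlgap1 (r = 0.75) and Dlgap2 (r = 0.72) were among them. Shank1 called 4 of the list with it (all genes, 5.02%) and Shank2 2 (6.81%). Shank3 called 5 with it (0.711%) and 1 against it (0.428%), and Camk2a 3 with it (0.485%). Without libraries 16 and 17, partners numbered 5 for Shank1 (4.99%), 4 for Shank2 (5.83%) and 5 for Camk2a (0.83%). In the Dlg3 fit 4 moved with Dlg3 (all genes, 5.17%) and 2 against it (5.07%). Without libraries 16 and 17, 0 of 32 were called (all genes, 0.3% and 0.52%), with 4 and 1 at an unadjusted limma p under 0.05.

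Several glutamate receptor genes moved with Homer1. All 8 listed passed the filter, their median r with the mean of the 9 was 0.32, and 2 had an r of at least 0.5, Gria1 (0.54) and Grm5 (0.52). The lowest were Grin2b (0.19) and Gria3 (0.19). In the Homer1 fit 5 of 8 moved with it (all genes, 5.86%). Among them were Grm5 (adjusted p = 1.58e-06), Grin2a (r = 0.74; adjusted p = 0.000165), Gria1 (r = 0.56) and Gria2 (r = 0.52). Leaving out libraries 16 and 17 left 3 of 8 (all genes, 3.8%), without Gria2 (adjusted p = 0.156). Then 3 of 8 were called with Dlg2 (13.2%), against 2 with all libraries (14.4%). Grin1, the obligatory NMDA receptor subunit, rose with Camk2b (r = 0.66; adjusted p = 0.000624) and with Dlg4 (r = 0.61; adjusted p = 0.00561). It was the 1 of 8 called with Camk2b, a share near that of all genes (11.5%). With Dlg4, 2 of 8 were called (all genes, 6.7%). Without libraries 16 and 17, 1 of 8 was called with Camk2b (9.9%) and 1 of 8 with Dlg4 (5.16%).

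Of 12 activity-induced genes, 0 were called in the limma fit on Homer1, and 0 had an unadjusted p under 0.05. Egr3, also induced by activity but not in that list, had an r of 0.53 with Homer1 and 0.67 with Dlg4. The median r of the 12 with the mean of the 9 was 0.036, and 0 had an r of at least 0.5 or at most -0.5. The highest were Egr4 (0.29) and Fosb (0.19), and the lowest Dusp1 (-0.17) and Bdnf (-0.12). Egr4 rose with Camk2b (r = 0.52; adjusted p = 0.0091) and with Dlg4 (r = 0.47, limma adjusted p = 0.0398). Fosb rose with Dlg2 (r = 0.44, adjusted p = 0.0248) and Arc fell as Dlg2 rose (r = -0.405, adjusted p = 0.0438). These are 1 of 12 with Camk2b (all genes, 11.5%), 1 with Dlg4 (6.7%), and 1 with (14.4%) and 1 against Dlg2 (14.2%). Without libraries 16 and 17, Egr4 with Dlg4 (adjusted p = 0.0719) and Arc (0.0797) lost their calls. Of 12 presynaptic genes, 2 had an r of at least 0.5 with the mean of the 9, Unc13a (0.71) and Bsn (0.57), and the list's median was 0.17. The lowest were Snap25 (-0.11) and Vamp2 (-0.06). In the Dlg2 fit 5 of the 12 moved with Dlg2 (all genes, 14.4%) and 3 against it (14.2%). Without libraries 16 and 17 these were 6 (13.2%) and 2 (12.1%). The active zone gene Pclo (r = 0.73) moved with Dlg2 and the vesicular glutamate transporter gene Slc17a7 (r = -0.56) against it. Slc17a7 rose with Camk2b (r = 0.73).

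**Figure D4:**
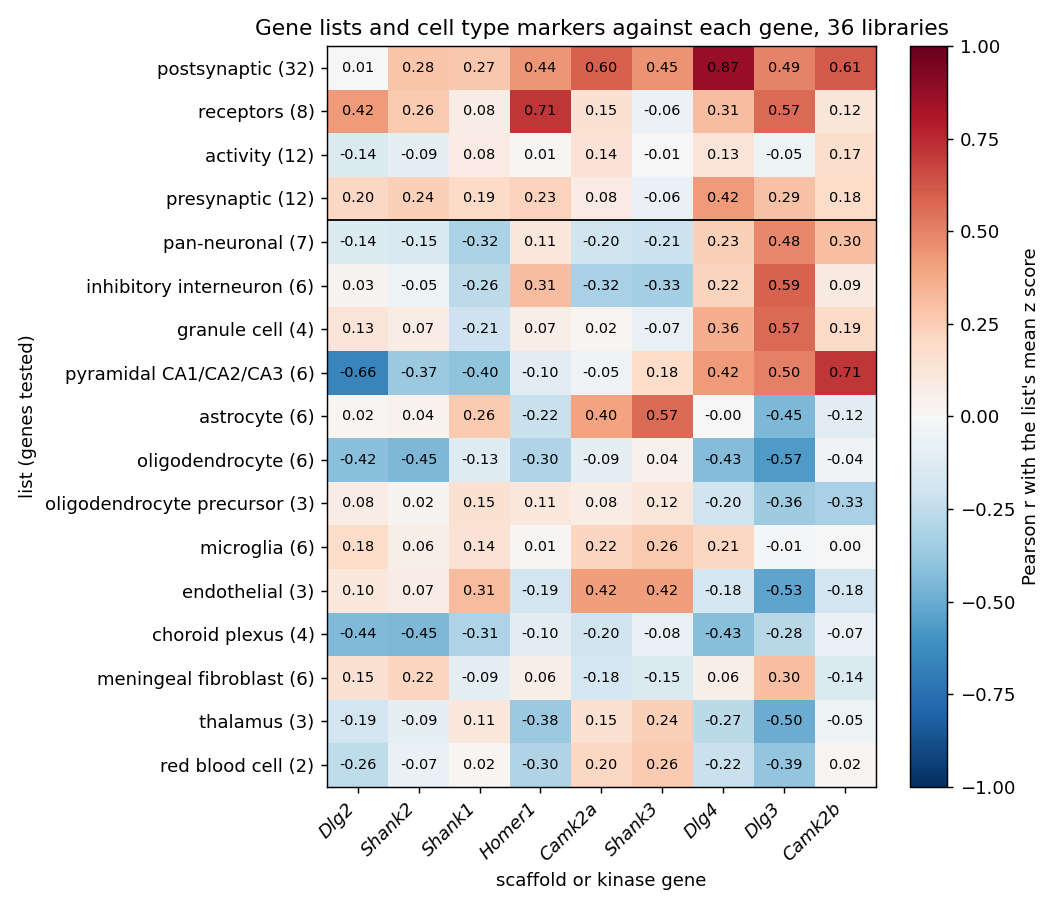
Pearson r over 36 libraries between the mean z score of each gene list or marker list (rows, number of tested genes in brackets) and the log2 level of each of the 9 genes (columns); the line separates synaptic and activity lists from cell type markers. The pyramidal row runs from -0.66 for Dlg2 to 0.71 for Camk2b, and the oligodendrocyte row is lowest for Dlg3 (-0.57).

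Markers of hippocampal cell types moved with several members, as a description over the 36 libraries. The mean of 6 pyramidal field markers (Wfs1, Fibcd1, Pcp4, Amigo2, Bok and Grik4) had an r of 0.71 with Camk2b and of -0.66 with Dlg2. Without libraries 16 and 17 these were 0.69 and -0.67. The summed level of the 6 genes ran from 22164 through 28073 to 34518. In the Camk2b fit 3 of 6 moved with Camk2b (all genes, 11.5%), Bok (r = 0.75; adjusted p = 1.26e-05), Wfs1 (r = 0.64) and Fibcd1 (r = 0.49). Grik4 had an r of 0.38 with it, Amigo2 0.19 and Pcp4 0.16. The granule cell marker C1ql2 also rose with Camk2b (r = 0.65, limma adjusted p = 0.000425), while the mean of the 4 granule cell markers had an r of 0.19. Without libraries 16 and 17, 2 of 6 pyramidal markers moved with Camk2b (all genes, 9.9%), and Fibcd1 had an r of 0.39 (adjusted p = 0.0899). C1ql2 then kept its call (r = 0.65, limma adjusted p = 0.000947). Bok and Amigo2 fell as Dlg2 rose (r = -0.75 and -0.44), and Amigo2 lost its call without these libraries (r = -0.39; adjusted p = 0.0685). These were 2 of 6 called against Dlg2 (all genes, 14.2%), and 1 of 6 without libraries 16 and 17 (12.1%). The 7 pan-neuronal markers did not move as one: their mean had an r of 0.30 with Camk2b and -0.14 with Dlg2. In the Camk2b fit 1 of 7 was called with it (all genes, 11.5%) and 0 against it (8.05%). The 1 called was Rbfox3, the gene of the neuronal nuclear protein NeuN (r = 0.92; adjusted p = 1.24e-09). In the Dlg2 fit 2 moved with it (all genes, 14.4%), Map2 (r = 0.71) and Syt1 (r = 0.48). Against Dlg2 moved 3 (14.2%), among them Rbfox3 (r = -0.52). Without libraries 16 and 17 these counts were 2 (13.2%) and 2 (12.1%). With the pyramidal mean as a covariate, chosen after seeing these values, the r of Dlg2 and Camk2b was -0.28 (adjusted p = 0.448) and that of Dlg3 and Camk2b 0.25 (adjusted p = 0.546). For Dlg4 and Camk2b it was 0.53 (adjusted p = 0.0549). The Dlg2, Shank1 and Shank2 pairs kept their calls under this covariate.

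Dlg3 moved with lists that library 17 set apart. All 6 myelin genes fell as Dlg3 rose (6 of 6 called, all genes 5.07%), and the list's mean had an r of -0.57. Of the interneuron markers, 5 of 6 rose with Dlg3 (all genes, 5.17%), with an r of 0.59 for the list. Without libraries 16 and 17 the r values were -0.27 and 0.28, and limma called 0 of 6 in each list (all genes, 0.52% and 0.3%). At an unadjusted limma p under 0.05 there were 2 and 1. Oligodendrocyte genes also went against Dlg2 (r = -0.42 for the list, 3 of 6 called), Dlg4 (-0.43, 2 of 6) and Shank2 (-0.45, 2 of 6). Those fits called 14.2%, 3.03% and 4.32% of all genes in that direction. Without libraries 16 and 17 the r was -0.48 with Dlg2 (2 of 6 called), -0.30 with Dlg4 and -0.53 with Shank2 (4 of 6). For Dlg4, limma called 0 of 6 (2 at an unadjusted p under 0.05). The shares of all genes called against Dlg2, Dlg4 and Shank2 were then 12.1%, 1.92% and 3.49%. The mean of 4 choroid plexus markers (Ttr, Kl, Folr1 and Aqp1) had an r of -0.45 with Shank2, -0.44 with Dlg2 and -0.43 with Dlg4. Called against them were 1, 2 and 1 of 4 (all genes, 4.32%, 14.2% and 3.03%). Without libraries 16 and 17 these were 0, 1 and 1 (3.49%, 12.1% and 1.92%). Aqp1 had an r of -0.01 with Shank2 and -0.03 with Dlg2, and Kl -0.07 with Dlg4. Median values of Kl, Aqp1 and Folr1 were low, at 9.99, 12.8 and 20.7. Its summed level ran from 39.0 through 87.8 to 1842 in library 8, where Ttr alone was 1699. The other 2 choroid plexus markers, Kcnj13 and Otx2, did not pass the filter. Granule cell markers had an r of 0.57 with Dlg3 (0.40 without libraries 16 and 17) and endothelial markers one of -0.53 (-0.28). Microglial markers had r values between -0.01 and 0.26 with the 9 genes. Astrocyte markers had an r of 0.57 with Shank3 (0.63 without libraries 16 and 17), and 1 of 6, Slc1a3, was called (all genes, 0.711%). The part of tissue makeup in the relations among the 9 genes was tested only as far as the covariates above and in the closing section go.

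Members differed in whether long or short genes moved with them. Genomic span on GRCr8 was known for 13508 tested genes outside the 9. Across these genes, which are not independent replicates, the Spearman rho between span and r with Dlg2 was 0.46. The median r with Dlg2 was -0.24 in the shortest quartile of genes and 0.25 in the longest. Homer1, Shank2 and Shank1 had rho values of 0.41, 0.41 and 0.35, and Camk2b had -0.37. For Camk2b the medians were 0.15 in the shortest quartile and -0.20 in the longest. The remaining members lay between -0.16 (Shank3) and 0.12 (Camk2a). The members' own spans were 2051.7 kb for Dlg2, 109.3 kb for Homer1, 445.2 kb for Shank2 and 49.5 kb for Shank1. Camk2b spans 89.0 kb, Shank3 70.3 kb, Camk2a 62.7 kb, Dlg3 52.2 kb and Dlg4 28.4 kb. The part of gene span in the relations among the 9 genes was not tested. Approximate depth had an r of -0.24 to 0.22 with the members.

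**Figure D5:**
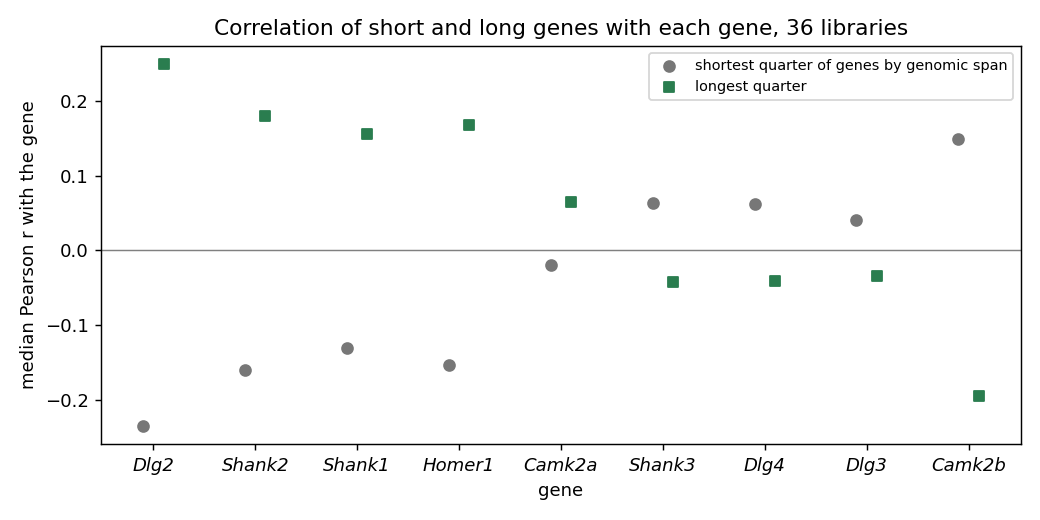
Median Pearson r with each of the 9 genes (horizontal axis) over 36 libraries, for the shortest quartile (circles) and longest quartile (squares) of 13508 genes by genomic span. The squares lie above the circles for Dlg2, Shank2, Shank1, Homer1 and Camk2a and below them for Shank3, Dlg4, Dlg3 and Camk2b, with the widest gaps at Dlg2 (-0.24 and 0.25) and Camk2b (0.15 and -0.20).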

How the data were processed

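Hippocampal RNA of 36 female rats was sequenced. The authors deposited 1 table of normalised gene counts, a signal that is not whole, with 20603 genes and 36 columns. Per the submitters' processing notes, kallisto 0.43 and DESeq2 were used, with no roles named, with the genome build or transcriptome not given in the sources used here. Columns could be tied to the tissue but to no status group, so no groups or batches were compared. Whole reads could not be recovered, so no count test was run.

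Genes with a mean of at least 10 (15893) were taken as log2(value + 1). Each was fitted on each of the 9 genes with limma 3.58.1 in R 4.3.3, tested on simulated data, with Benjamini-Hochberg adjustment over all genes of a fit and a threshold of 0.05. Correlations had two-sided p-values from 100000 permutations. A library stood apart where its median rank correlation lay more than 3 interquartile ranges below the first quartile. Named genes are the 9, the 2 highest and 2 lowest of each synaptic or activity list by r with the mean of the 9, the 10 highest and 5 lowest of all genes, and each member's nearest gene. Others named, the step search, the promoter window, and the span and high-level comparisons were chosen after values were seen. The members and lists were chosen with earlier results of these data known. RefSeq tables of GRCr8 matched 85.1% of tested genes by symbol. Some genes that the naming rule picks are not reported here.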

Additional observations from a re-analysis of the deposited data

How the results depend on the processing

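None of the 10 called pairs changed sign in any alternative run. The pseudocounts, mean filters and median-of-ratios rescaling left every r as it was and so could not show a change of sign. The number of pairs called in the same direction was 9, and 5 on ranks. It was 7 to 10 in the other alternatives, and 7 to 9 with each library left out in turn. The opposite pair, Dlg2 and Camk2b, remained the single one called with each library left out in turn (1 to 1). With the pyramidal marker mean as a covariate 0 opposite pairs were called, and with the oligodendrocyte mean 3 were. Dlg3 and Dlg4 lost its call in 9 of the 16 alternatives (highest adjusted p = 0.291), Dlg2 and Homer1 in 6 (0.648) and Dlg3 and Camk2b in 4 (0.546). Without the 2 columns farthest from the median, Shank1 and Camk2a (adjusted p = 0.124) and Shank3 and Camk2a (0.0917) lost theirs. Scaling each column to the same total left 616 genes with an r of at least 0.5 with the mean of the 9, against 402, and 302 genes at or below -0.5, against 165. The cause was not tested. Other settings kept these counts within 1.5 times, and rescaling moved no member's median level by more than its spread. The covariates for pyramidal, oligodendrocyte and choroid plexus markers, for depth and for column number, and leaving out single libraries, were chosen after seeing the data. No paired analysis was possible because the columns carry no sample or group. At these depths the members' values are far above counting limits, and the missing link between columns and groups limits what can be said.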
